A study of Homo sapiens with 36 samples.

Results

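HSH2D (ENSG00000196684) encodes the haematopoietic SH2 domain protein, an adaptor also known as ALX or HSH2. It was chosen by its measured TPM, because its RNA was lower after A9 than after DMSO in both cell lines of the study, so every A9 value of HSH2D and of its transcripts given here is a description without a test. It is 1 of 35490 genes measured, and all 8 of its annotated transcripts are among the 207175 transcripts with values. On GRCh38 the gene lies on the plus strand at chr19:16134028-16158575 and is annotated as protein coding.

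An SH2 domain is a fold that binds phosphorylated tyrosine, and adaptor proteins use it to bring signalling proteins to activated kinases without having enzyme activity of their own. HSH2D is made mainly in blood cells and has been studied mostly in T and B lymphocytes, where it acts below antigen and costimulatory receptors and, in B cells, is raised by signals that promote survival. Its closest relative is SH2D2A (TSAd), and the kinases FES and TNK2 (ACK1) and the membrane adaptor LAX1 are known partners.

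RNA was sequenced from MOLM-13 and MONO-MAC-6, 2 established human acute myeloid leukaemia cell lines labelled as wild type, after 72 h with vehicle (DMSO) or with A9. A9 is a PROTAC, a compound made to bring its target proteins to degradation, and the series' design text names IKK2 and NR4A1 as its targets while the title names IKK1 and NR4A1. MOLM-13 received 0.125 µM and MONO-MAC-6 received 0.25 µM, so line and dose change together. The 4 groups hold 9 libraries each, and the 3 libraries that share the first number of a title were averaged into 1 sample, which gave 3 samples a group. The labels do not say that the samples were separate cultures, so p-values measure only the spread between these samples, which may be technical. Each line is a cell population grown in culture, and in bulk RNA fewer cells that make a transcript and less RNA per cell cannot be told apart.

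All values are TPM, abundances corrected for transcript length and scaled to a total of 1000000 in each library. They hold no counts, so the read depth behind a value is unknown and counting intervals could not be given. A sample is the mean of its 3 libraries and a gene is the sum of its transcripts. Differences are in log2(TPM + 1), which understates the change of low genes, and a gene passed the test at a Benjamini-Hochberg adjusted p under 0.05 in limma. Of the 14 myeloid markers, 12 to 13 were at 1 TPM or more in each group, while the 6 T cell markers summed to at most 0.870 TPM. MONO-MAC-6 DMSO sample 1 stood apart: the number of genes called in that line was 433 (3.36% of those tested) with it and 3205 without it, and values without it are given where they matter.

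The 8 transcripts differ in where they start, in whether they keep an intron and in their coding part. HSH2D-206, with 6 exons and 1957 bases, and HSH2D-208, with 8 exons and 2366 bases, carry the same coding sequence of 1056 bases in 5 exons. HSH2D-208 starts 9657 bases upstream of HSH2D-206, and 207 of the 208 bases of its exon 1 lie within an exon of the neighbouring gene RAB8A. Its exon 1 also overlaps an antisense gene, annotated in RefSeq as HSH2D-AS1, and the labels do not state whether the libraries kept strand. HSH2D-204 is annotated with an incomplete coding sequence, HSH2D-201 as a retained intron, and HSH2D-202, HSH2D-203, HSH2D-205 and HSH2D-207 as targets of nonsense-mediated decay, the pathway that removes RNA with an early stop codon. HSH2D-201, HSH2D-202 and HSH2D-207 keep the 401-base intron that follows exon 3 of HSH2D-206.

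The start of the coding sequence that HSH2D-206 and HSH2D-208 share is shown first, as annotated in GENCODE 29 on the GRCh38 plus strand, from chr19:16148751, with the start codon in capitals. The other 3 lines show the place where the transcripts part, since the isoform shares rest on such stretches: each begins with the same 40 bases, which end at chr19:16152641, the last base of exon 3. Capitals mark intron bases kept in HSH2D-202 and the 11 bases that HSH2D-205 adds before exon 4.
HSH2D-206 coding part of exon 2: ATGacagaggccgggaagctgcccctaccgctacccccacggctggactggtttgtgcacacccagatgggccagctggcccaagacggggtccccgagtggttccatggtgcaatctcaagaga
HSH2D-206 exon 3 to exon 4: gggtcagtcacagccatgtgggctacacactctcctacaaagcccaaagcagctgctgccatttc
HSH2D-202 exon 3: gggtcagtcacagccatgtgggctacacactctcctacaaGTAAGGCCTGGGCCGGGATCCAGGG
HSH2D-205 exon 3 to exon 4: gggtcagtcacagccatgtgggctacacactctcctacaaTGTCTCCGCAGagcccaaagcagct

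In HSH2D-202 the annotated coding part ends 1 base past exon 3, just before the letters TAA of the kept intron. The coding part of HSH2D-202 is 216 bases and that of HSH2D-205 is 255 bases, against 1056 bases in HSH2D-206. How well such transcripts can be separated was measured by the stretches of 31 bases that occur in no other HSH2D transcript. HSH2D-206 has 5 such stretches among 1927 (0.259%), HSH2D-202 has 371 among 1334 (27.8%) and HSH2D-208 has 414 among 2336 (17.7%). Of those 414, 177 also occur in RAB8A, and only 187 occur in no transcript of another gene on either strand. HSH2D-201, HSH2D-205 and HSH2D-207 have 30 each, HSH2D-204 has 28 and HSH2D-203 has 130, of which 82 occur in no other gene. How reads were divided among the 8 transcripts bears on the level of each single transcript. It also bears on the gene sum, since TPM corrects for length, from 507 bases in HSH2D-203 to 2473 in HSH2D-207. The stretches that HSH2D shares with other genes bear on the gene sum as well.

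HSH2D was lower after A9 in every sample of both lines. In MOLM-13 the gene sum was 16.1, 16.4 and 14.3 TPM in the 3 DMSO samples and 6.58, 6.70 and 7.26 TPM in the 3 A9 samples. The groups did not overlap, and neither did the single libraries, which ran from 12.6 to 17.3 TPM (median 15.8) after DMSO and from 6.23 to 7.95 TPM (median 6.82) after A9. The means were 15.6 ± 1.15 TPM (SD, n = 3) and 6.85 ± 0.361 TPM (SD, n = 3), so the A9 level was 43.9% of the DMSO level, 2.28-fold lower. The difference was -1.08 in log2(TPM + 1) (SE 0.105), beside a median of -0.046 over all 11602 genes tested.

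In MONO-MAC-6 the gene sum was 11.3, 10.5 and 10.4 TPM in the DMSO samples and 4.61, 3.02 and 3.83 TPM in the A9 samples. Again neither samples nor libraries overlapped, with libraries from 10.1 to 11.6 TPM (median 10.6) after DMSO and from 2.74 to 5.12 TPM (median 4.06) after A9. The means were 10.7 ± 0.485 TPM (SD, n = 3) and 3.82 ± 0.793 TPM (SD, n = 3), which put the A9 level at 35.6% of the DMSO level, 2.81-fold lower. The difference was -1.30 in log2(TPM + 1) (SE 0.154), beside a median of 0.16 over all 12876 genes tested, and -1.26 without DMSO sample 1. Among all genes tested, this was the 13th lowest difference in MONO-MAC-6, and that of MOLM-13 was the 16th lowest. Groups with no overlap and A9 lower were seen for 6.42% of the genes tested in MOLM-13 and for 10.7% in MONO-MAC-6. The sizes of the 2 differences were not compared, because the doses differ.

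**Figure D1:**
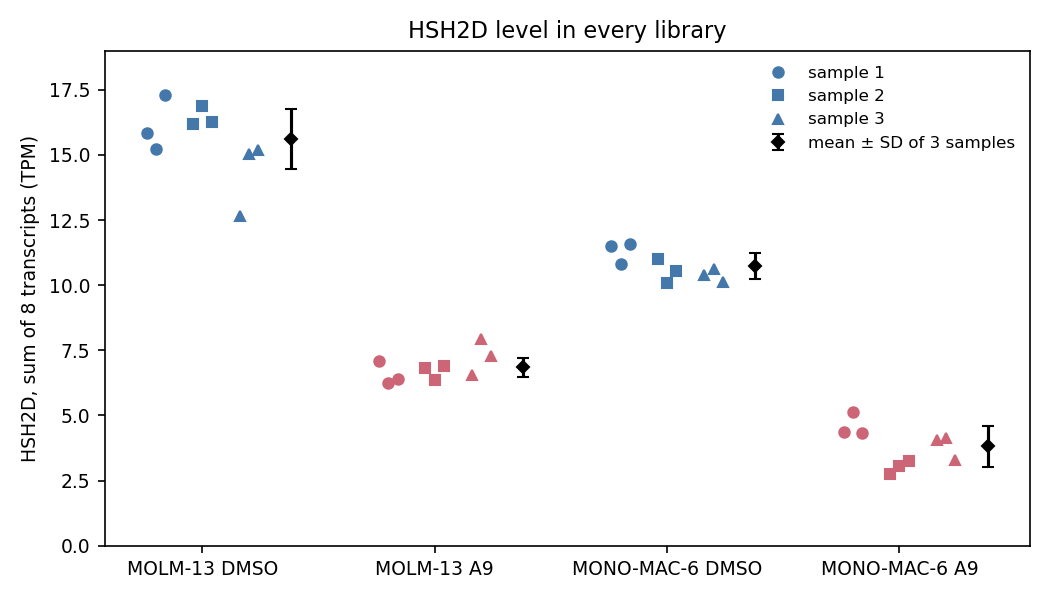
HSH2D gene sum in TPM (y axis, from 0) for each of the 36 libraries, by group and sample (circle, square and triangle for samples 1, 2 and 3); diamonds are means of 3 samples with their SD. The A9 libraries, 6.23 to 7.95 TPM in MOLM-13 and 2.74 to 5.12 TPM in MONO-MAC-6, all lie below the DMSO libraries of the same line.

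Repeat libraries of a sample differed little in the gene sum. Their coefficient of variation ran from 2.29% in MOLM-13 DMSO sample 2 to 11.9% in MONO-MAC-6 A9 sample 3. Among the A9 samples of MONO-MAC-6, sample 2 was the lowest and its libraries, 2.74 to 3.25 TPM, lay below all libraries of the other 2 samples, 3.30 to 5.12 TPM. HSH2D was a gene of middling level: in MOLM-13 DMSO samples it ranked 5506 of the 11406 genes at 1 TPM or more, and in MONO-MAC-6 DMSO samples 6933 of 12319. After A9 it ranked 7745 of 11370 in MOLM-13 and 10065 of 12665 in MONO-MAC-6.

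Over the 4 groups the order of the levels was MOLM-13 DMSO, MONO-MAC-6 DMSO, MOLM-13 A9 and MONO-MAC-6 A9, and no neighbours in that order overlapped over samples. Between the DMSO groups, 24.1% of all genes tested were lower in MONO-MAC-6 without overlap. The level after DMSO alone is a contrast that the choice of the gene did not use. HSH2D was 1.45-fold lower in MONO-MAC-6 than in MOLM-13 DMSO samples, a difference of -0.50 in log2(TPM + 1) (SE 0.118, limma adjusted p = 0.0134), where 18.4% of all 12928 genes tested were lower in MONO-MAC-6 and 30.4% higher. The call was lost with the first library of each sample alone, and without MOLM-13 DMSO sample 1 (-0.48, limma adjusted p = 0.0559) or sample 2 (-0.46, limma adjusted p = 0.0792). The 2 lines were deposited in separate tables, and any difference in handling between the tables cannot be told apart from the line.

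HSH2D-206, the main transcript, made up about as much of the gene after DMSO as all others together and held most of the difference. In MOLM-13 it was at 7.64, 7.64 and 7.70 TPM after DMSO and at 3.06, 2.66 and 2.60 TPM after A9, and in MONO-MAC-6 at 6.15, 5.71 and 5.46 TPM and at 1.72, 1.03 and 1.71 TPM. The groups did not overlap in either line. The A9 mean was 36.2% of the DMSO mean for MOLM-13 and 25.7% for MONO-MAC-6, and HSH2D-206 accounted for 55.7% and 62.0% of the difference in the gene sum. The other 7 transcripts together were also lower, from 7.95 to 4.07 TPM (51.2%) in MOLM-13 and from 4.96 to 2.33 TPM (47.0%) in MONO-MAC-6, without overlap.

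HSH2D-208, the transcript from the upstream start, had the highest A9 level as a percentage of DMSO among the 8 transcripts in both lines. In MOLM-13 it was at 1.90, 1.81 and 1.32 TPM after DMSO and 0.952, 1.17 and 1.15 TPM after A9, 65.0% of the DMSO mean, without overlap. In MONO-MAC-6 it was at 1.17, 0.614 and 0.986 TPM and at 0.793, 0.681 and 0.519 TPM, 72.1% of the DMSO mean, and the groups overlapped. Its part in the difference of the gene sum was 6.69% and 3.72%. Without HSH2D-208 the gene sum after A9 was 41.3% of the DMSO level for MOLM-13 and 32.1% for MONO-MAC-6.

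**Figure D2:**
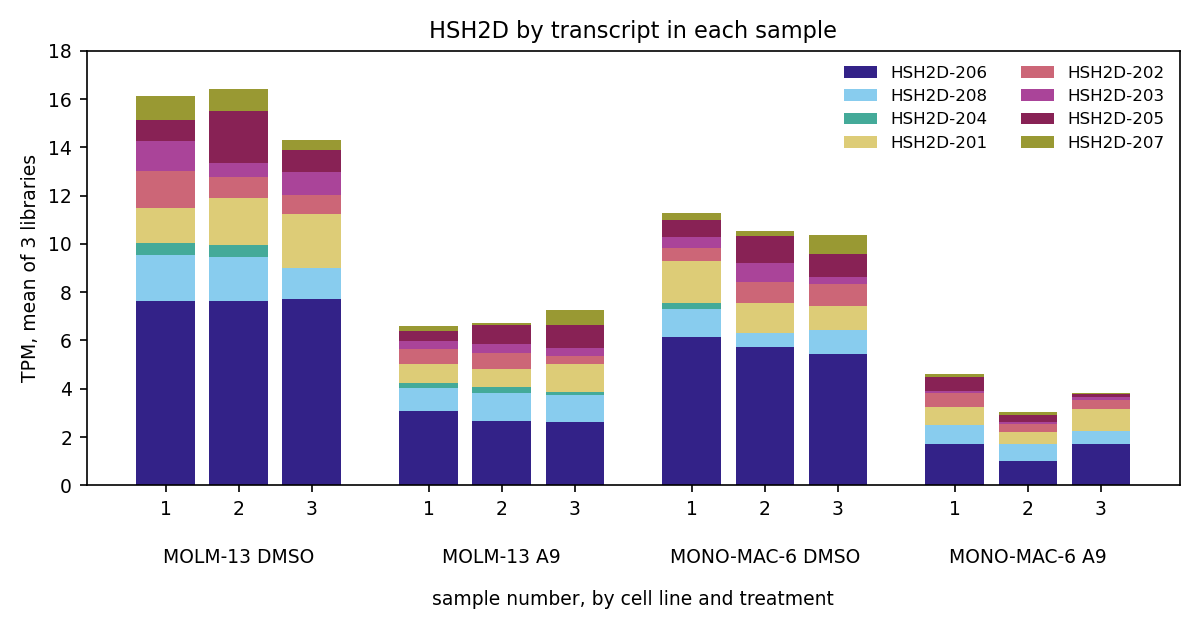
HSH2D level in TPM (y axis, from 0) in each of the 12 samples, stacked by transcript; each bar is the mean of 3 libraries. The dark lowest block is HSH2D-206, whose mean went from 7.66 TPM in MOLM-13 DMSO samples to 2.78 TPM in A9 samples and from 5.77 to 1.48 TPM in MONO-MAC-6.

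As a share of the gene, HSH2D-206 was lower and HSH2D-208 higher after A9. The share of HSH2D-206 was 47.4%, 46.5% and 53.9% in MOLM-13 DMSO samples and 46.5%, 39.7% and 35.9% in A9 samples, a difference in means from 49.3% to 40.7% with the highest A9 sample just above the lowest DMSO sample. In MONO-MAC-6 it was 54.5%, 54.2% and 52.6% and then 37.2%, 33.9% and 44.7%, from 53.7% to 38.6%, without overlap. The share of HSH2D-208 was 11.8%, 11.0% and 9.23% and then 14.5%, 17.4% and 15.8% in MOLM-13, and 10.3%, 5.82% and 9.50% and then 17.2%, 22.5% and 13.5% in MONO-MAC-6. In both lines every A9 sample was above every DMSO sample in this share, as was also so for HSH2D-201 and HSH2D-202 in MONO-MAC-6. The shares add up to the whole gene, so a lower share of HSH2D-206 raises that of the others together. Over single libraries the shares of both transcripts overlapped between DMSO and A9 in both lines. That of HSH2D-208 ran from 6.40% to 14.3% after DMSO and from 9.94% to 21.1% after A9 in MOLM-13. In MONO-MAC-6 it ran from 3.54% to 14.4% after DMSO and from 9.54% to 35.9% after A9. A larger share of a smaller sum still meant less of the transcript: the mean of HSH2D-208 went from 1.68 to 1.09 TPM in MOLM-13 and from 0.922 to 0.664 TPM in MONO-MAC-6.

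**Figure D3:**
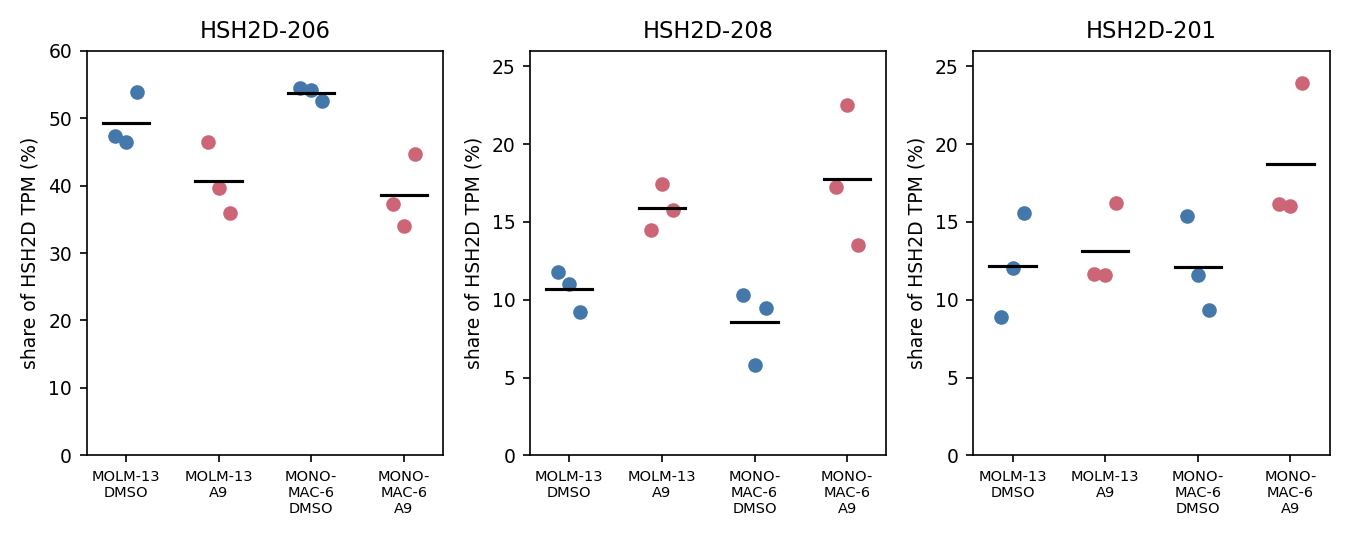
Share of the HSH2D gene sum in percent (y axes, from 0, with different scales) of HSH2D-206, HSH2D-208 and HSH2D-201 in each sample (points, blue for DMSO and red for A9) with group means (lines). The A9 samples of MONO-MAC-6 lie below the DMSO samples for HSH2D-206 and above them for the other 2 transcripts.

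The 2 transcripts with the whole coding sequence summed to 9.34 TPM after DMSO and 3.87 TPM after A9 in MOLM-13, and to 6.70 and 2.15 TPM in MONO-MAC-6. This put the A9 level at 41.4% and 32.1% of the DMSO level, near the values of the gene sum. The 4 transcripts annotated for nonsense-mediated decay summed to 4.07 TPM after DMSO and 1.88 TPM after A9 in MOLM-13 and to 2.66 and 0.955 TPM in MONO-MAC-6. Their share of the gene overlapped between DMSO and A9 in both lines. Among them HSH2D-203 was at 0.914 TPM after DMSO and 0.345 TPM after A9 in MOLM-13, and at 0.496 and 0.0951 TPM in MONO-MAC-6. HSH2D-204, the least abundant transcript, had a mean of 0.331 TPM in MOLM-13 DMSO samples and was listed at 0 in 8 of the 9 MONO-MAC-6 DMSO libraries and in all 9 A9 libraries of that line.

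The 3 transcripts that keep the 401-base intron went together from 3.70 to 1.72 TPM in MOLM-13 and from 2.53 to 1.25 TPM in MONO-MAC-6. Their share of the gene was 24.5%, 22.8% and 23.9% in MOLM-13 DMSO samples and 23.6%, 22.4% and 29.1% in A9 samples, which overlapped. In MONO-MAC-6 it was 22.9%, 22.0% and 25.9% after DMSO and 31.3%, 31.6% and 35.3% after A9, without overlap. HSH2D-201 and HSH2D-202 each had a higher share after A9 there, from 12.1% to 18.7% and from 7.48% to 11.2%, while HSH2D-207, at 0.425 and 0.105 TPM, did not.

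The genes around HSH2D were compared to see whether they moved with it. Of 36 measured genes within 500 kb, 13 were tested in MOLM-13 and none passed the limma test, with 2 at an unadjusted p under 0.05, where 0.121% of all genes passed. In MONO-MAC-6, 12 were tested and 1 fell, CIB3, with 2 at an unadjusted p under 0.05, where 0.854% of all genes tested fell. There CIB3 met the minimum of 1 TPM for testing only through DMSO (1.44 TPM, against 0.275 TPM after A9), which favours a fall. Over these neighbours the median difference was -0.12 for MOLM-13, beside -0.046 over all genes, and 0.072 for MONO-MAC-6, beside 0.16. Between the DMSO groups, 13 neighbours were tested, with 5 lower in MONO-MAC-6 and 0 higher, beside 18.4% and 30.4% of all genes. Of the 13, 12 had a difference below 0, and the median was -0.48 beside 0.12 over all genes.

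CIB3 (ENSG00000141977), which encodes a calcium and integrin binding protein, lies at chr19:16161368-16173525 on the minus strand, so that its 3′ end faces that of HSH2D across 2793 bases. In MOLM-13 it was at 26.9, 30.6 and 28.7 TPM after DMSO and 12.7, 15.9 and 20.6 TPM after A9, without overlap, and did not pass the test (-0.80 in log2(TPM + 1), SE 0.172, limma adjusted p = 0.203). In the other line, MONO-MAC-6, CIB3 was at 1.48, 1.75 and 1.11 TPM after DMSO and 0.128, 0.259 and 0.439 TPM after A9 (-0.94, SE 0.155, limma adjusted p = 0.0299). That call rested on few samples: it was lost when DMSO sample 2 or 3 or any 1 of the 3 A9 samples was left out, with limma adjusted p-values from 0.0071 to 0.168 over the 6 fits that leave out a sample. It was also lost with no filter (0.0589 by limma) and with the first library of each sample (0.103), and with a pseudocount of 0.1 the difference was -2.11 (limma adjusted p = 0.0485). Reads that run past the end of either gene cannot be told apart from reads of the other without strand. After DMSO alone CIB3 was far lower in MONO-MAC-6 than in MOLM-13, 1.44 ± 0.323 against 28.7 ± 1.86 TPM (SD, n = 3; -3.61, limma adjusted p = 1.07e-05).

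RAB8A (ENSG00000167461), a small GTPase of membrane traffic at chr19:16111629-16134234, is the gene on the other side, and its last exon holds most of exon 1 of HSH2D-208. RAB8A was at 176, 143 and 120 TPM after DMSO and 129, 155 and 96.8 TPM after A9 in MOLM-13, which overlapped (-0.21, limma adjusted p = 0.870). Its MONO-MAC-6 levels were 50.2, 85.0 and 88.3 TPM after DMSO and 72.4, 73.2 and 70.7 TPM after A9 (-0.0039, limma adjusted p = 0.992). Without DMSO sample 1 of MONO-MAC-6, its lowest value, RAB8A passed the test as lower (-0.26, limma adjusted p = 0.00544).

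**Figure D4:**
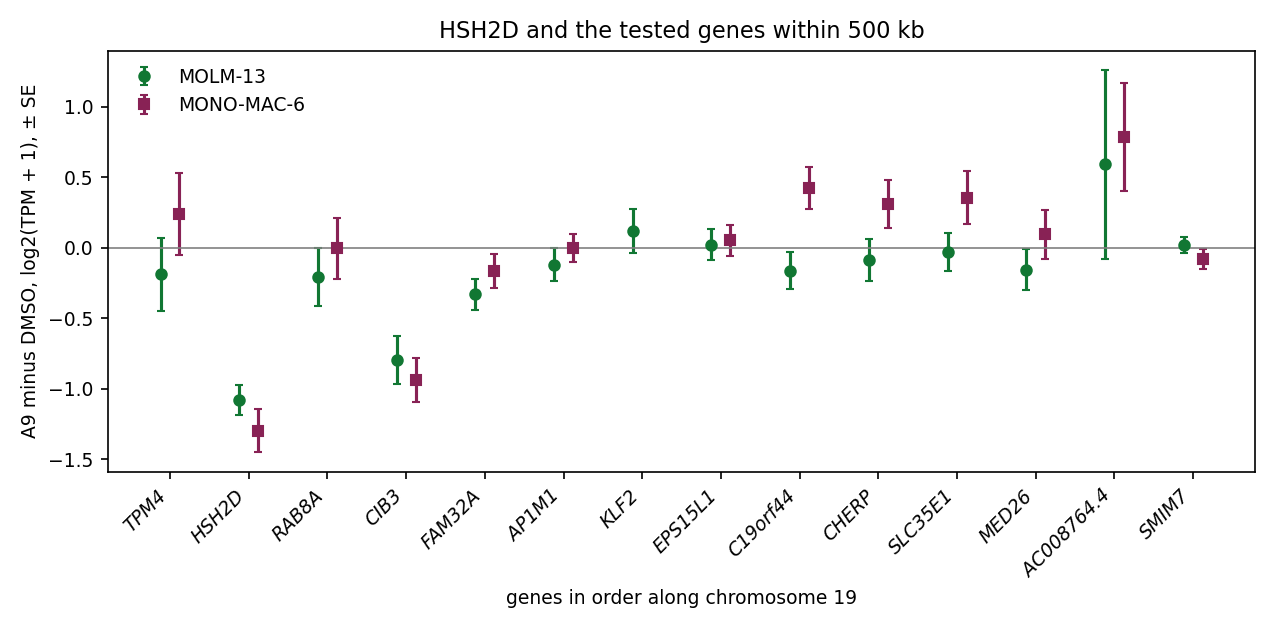
A9 minus DMSO difference in log2(TPM + 1) with its SE (y axis) for HSH2D and the genes tested within 500 kb, in MOLM-13 (circles) and MONO-MAC-6 (squares). The genes are in their order along the chromosome, except that HSH2D is drawn before RAB8A, while on the chromosome it lies between RAB8A and CIB3. HSH2D, at -1.08 and -1.30, and CIB3, at -0.80 and -0.94, lie below the other genes shown.

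The closest relative of HSH2D and its known partners FES and TNK2 did not pass the test of A9 in either line. SH2D2A, the T cell adaptor TSAd, was at 2.59 ± 0.255 TPM after DMSO and 2.41 ± 0.301 TPM after A9 in MOLM-13 (SD, n = 3; limma adjusted p = 0.897) and at 19.3 ± 1.45 and 15.2 ± 1.82 TPM in MONO-MAC-6 (SD, n = 3; -0.33, limma adjusted p = 0.218), and without MONO-MAC-6 DMSO sample 1 it passed as lower (-0.39, limma adjusted p = 0.0201). FES, a cytoplasmic tyrosine kinase of myeloid cells, was at 111 TPM after DMSO and 109 TPM after A9 in MOLM-13 (limma adjusted p = 0.958) and at 49.0 and 45.6 TPM in MONO-MAC-6 (limma adjusted p = 0.525). TNK2 was near 1 TPM in all groups, from 0.846 to 1.39 TPM, and passed as higher in MONO-MAC-6 only without DMSO sample 1 (0.41, limma adjusted p = 0.0382). LAX1 was below 0.5 TPM in all group means and was not tested.

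After DMSO alone, SH2D2A and FES also differed between the lines. SH2D2A was higher in MONO-MAC-6, by 2.50 in log2(TPM + 1) (limma adjusted p = 2.43e-05), and FES was lower, by -1.16 (limma adjusted p = 0.000171). Of 26 SH2 adaptors tested between the lines, 11 were higher and 4 lower in MONO-MAC-6, and of 23 tyrosine kinases and phosphatases 5 were higher and 6 lower, beside 30.4% and 18.4% of all genes. With median-ratio scaling the SH2 adaptors held 12 higher and 8 lower of 25, and all genes turned from 3924 higher and 2384 lower to 3362 and 3756.

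Other SH2 and related adaptors, the proteins that share the role of HSH2D, were listed next. Of 35 listed, 21 were tested in MOLM-13 and none passed, where 0.121% of all genes passed, with 2 at an unadjusted p under 0.05 and a median of -0.055 beside -0.046 over all genes. In MONO-MAC-6, 24 were tested and 2 rose, where 2.51% of all genes rose, with a median of 0.28 beside 0.16 over all genes. They were DAPP1, an adaptor that binds phosphoinositides, from 2.87 to 8.05 TPM (1.24, limma adjusted p = 0.0133), and SH2D3C, an adaptor of cell adhesion, from 1.01 to 2.65 TPM (0.86, limma adjusted p = 0.0204). Without any 1 of the A9 samples neither passed, and SH2D3C also did not pass without DMSO sample 2 or 3. Without DMSO sample 1 the list held 6 higher and 4 lower, where 1872 of all 12931 genes tested were higher and 1333 lower.

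Among 28 tyrosine kinases and phosphatases of blood cells, none of 24 tested passed in MOLM-13, beside 0.121% of all genes, with 3 at an unadjusted p under 0.05. FGR, a Src family kinase of mature myeloid cells, rose in MONO-MAC-6 from 10.7 to 64.1 TPM (2.49, limma adjusted p = 0.00290). FGR passed in each of the 6 fits that leave out a sample, with limma adjusted p-values of at most 0.0324.

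Genes of the pathways that the compound is named for and genes of the interferon response were also listed. Of 32 NF-kB pathway genes, none of 22 tested passed in MOLM-13, where 0.121% of all genes passed, with 5 at an unadjusted p under 0.05. Of 26 tested in MONO-MAC-6, where 2.51% of all genes rose, 1 rose, the neutrophil chemokine CXCL8, from 4.41 to 36.8 TPM (2.79, limma adjusted p = 0.000925). Without DMSO sample 1 of that line, 9 were higher and 1 lower, where 1872 of all 12931 genes tested were higher and 1333 lower. NR4A1, the nuclear receptor named as a target, had an RNA level of 3.78 TPM after DMSO and 3.57 TPM after A9 in MOLM-13 (limma adjusted p = 0.922) and of 4.54 and 5.72 TPM in MONO-MAC-6 (limma adjusted p = 0.400), which says nothing of its protein. Of 44 interferon-stimulated genes, none of 33 tested passed in MOLM-13 (0.121% of all genes passed there), with 7 at an unadjusted p under 0.05, while 6 of 41 rose in MONO-MAC-6, where 2.51% of all genes rose, with a median of 0.50 beside 0.16 over all genes. Those were IFI6 (57.4 to 309.7 TPM), IFI27 (5.22 to 75.7 TPM), IFITM3, IFI44L, OAS3 and IFI35. The 6 became 2 without A9 sample 2 or 3, 3 without A9 sample 1, 20 higher with 3 lower without DMSO sample 1, and 3 higher with 1 lower with the first library of each sample. Over all genes 323 calls were higher, and 105, 56 and 57 without A9 samples 1, 2 and 3. The number was 1872 without DMSO sample 1 and 217 with the first library of each sample. With median-ratio scaling IFITM3 passed as higher in MOLM-13 (limma adjusted p = 0.0394, against 0.0599) and no longer passed in MONO-MAC-6 (0.0706, against 0.00588 by limma).

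The genes whose pattern over the 12 samples was most like that of HSH2D were found by Pearson's r of log2(TPM + 1) with each line's mean removed, among 8054 genes at a mean of 5 TPM or more in each line. The points share the treatment contrast that chose HSH2D, so r is a description. A choice by r favours genes with an A9 difference, so the limma p-values of these genes are descriptions too. XBP1, a transcription factor of the unfolded protein response, came first (r = 0.983). It was at 253.7, 251.3 and 250.3 TPM after DMSO and at 176, 173 and 162 TPM after A9 in MOLM-13, and at 254, 269 and 258 TPM and then 159, 133 and 143 TPM in MONO-MAC-6. The groups did not overlap, and XBP1 fell in both lines, where 0.0345% and 0.854% of the genes tested fell (-0.56, limma adjusted p = 0.0358, and -0.84, limma adjusted p = 0.00682). The MOLM-13 call was lost when any 1 sample was left out, with limma adjusted p-values from 0.0675 to 0.287, and with median-ratio scaling or no filter, and the MONO-MAC-6 call without A9 sample 2 or 3 (0.0565 and 0.0733 by limma).

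Next came RBM4, an RNA-binding splicing factor (r = 0.968), GAL, the neuropeptide galanin (0.968), and CALR, a calcium-binding chaperone of the endoplasmic reticulum (0.959). They were followed by the adhesion molecule ICAM2 (0.954), the fatty acid transporter SLC27A2 (0.951), the ubiquitin-conjugating enzyme UBE2E3 (0.947) and the actin bundling protein FSCN1 (0.945). In all 8 genes the A9 samples lay below the DMSO samples in both lines, beside 6.42% and 10.7% of the genes tested, but the choice by r over these samples favours such genes and nothing is read from it. The limma p-values of the 8 genes come from the same samples as r. Besides XBP1, none of them passed in MOLM-13, where the limma adjusted p ran from 0.0739 for FSCN1 to 0.522 for SLC27A2. In MONO-MAC-6, GAL fell from 42.4 to 20.1 TPM (-1.04, limma adjusted p = 0.0174), FSCN1 from 46.8 to 24.5 TPM (-0.90, limma adjusted p = 0.0142), CALR from 3501 to 2400 TPM (-0.55, limma adjusted p = 0.0204) and ICAM2 from 31.01 to 20.3 TPM (-0.58, limma adjusted p = 0.0377). Each of these 4 calls was lost without any 1 of the A9 samples and without DMSO sample 2. Over all alternatives run, the call of FSCN1 was lost in 5 and kept in 6, and that of GAL lost in 6 and kept in 5. That of CALR was lost in 7 and kept in 4, and that of ICAM2 lost in 9 and kept in 2. With median-ratio scaling CALR (limma adjusted p = 0.0621) and ICAM2 (0.0604) did not pass, nor did ICAM2 with no filter (0.0733) or with the first library of each sample (0.0566). The same r was 0.916 for CIB3, 0.630 for FAM32A, the gene next to CIB3, 0.686 for SH2D2A, 0.273 for FES, 0.152 for RAB8A, -0.117 for TNK2 and -0.156 for LAX1, of which CIB3, SH2D2A, TNK2 and LAX1 lie below the minimum of 5 TPM in at least 1 line.

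**Figure D5:**
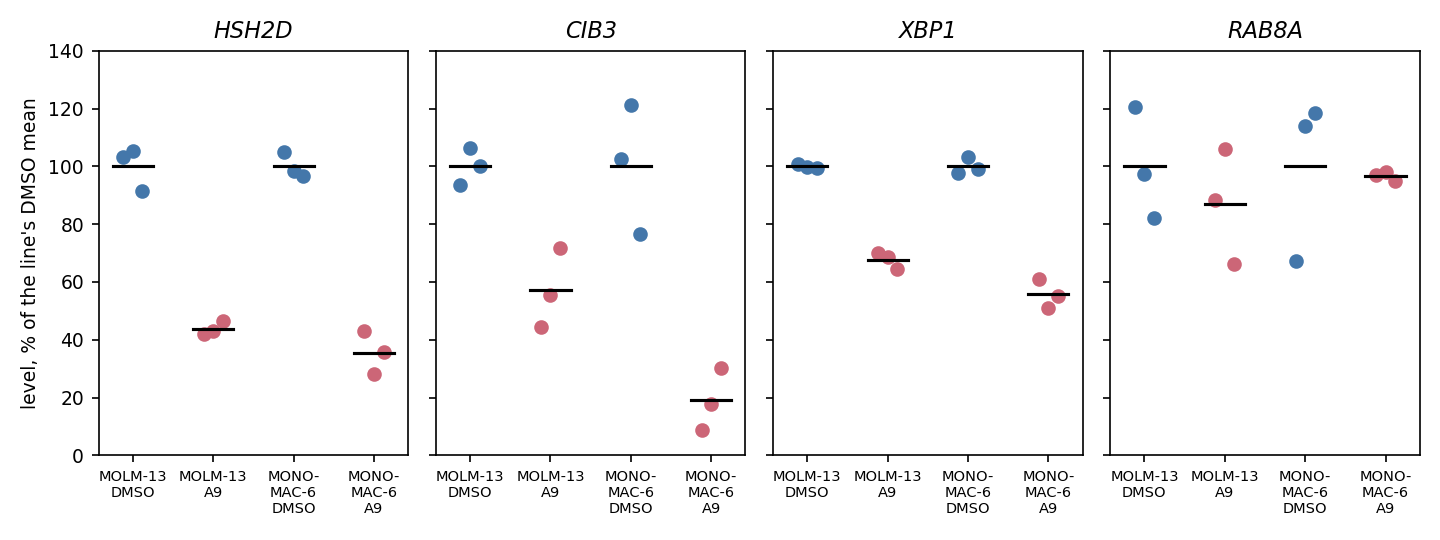
Level of HSH2D, CIB3, XBP1 and RAB8A in each sample as a percentage of the DMSO mean of its line (y axis, from 0; points are samples, blue for DMSO and red for A9; lines are group means). A9 samples of HSH2D lie between 28.1% and 46.5%, those of XBP1 between 50.9% and 70.0%, and those of RAB8A between 66.2% and 106%.

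Marker genes of the cell types were followed beside HSH2D. The 14 myeloid markers summed to 845 to 878 TPM in MOLM-13 DMSO samples and 1089 to 1213 TPM in A9 samples, and to 3936 to 4461 and 8727 to 9049 TPM in MONO-MAC-6. Of the 13 tested, 1 rose in MOLM-13, where 0.0862% of all genes rose, and 5 rose in MONO-MAC-6, where 2.51% rose. LYZ, the lysozyme gene, was the 1 in MOLM-13 and made up most of the sum in MONO-MAC-6, where its mean went from 3413 to 7681 TPM; TYROBP, CD68, CD14 and SPI1 were the others that rose there. MPO, at 51.9 and then 37.7 TPM in MONO-MAC-6, FCER1G, at 48.4 and 47.7 TPM, and ITGAM, at 2.98 and 3.01 TPM, did not pass. Whether the marker calls hold when a sample is left out or the processing changes was not examined. The 6 B cell markers summed to 2.05 to 4.07 and 2.53 to 2.54 TPM in MOLM-13 and to 10.3 to 12.1 and 7.30 to 8.11 TPM in MONO-MAC-6, with 1 of the 6 at 0 in each group. The 4 erythroid markers summed to at most 0.157 TPM in MOLM-13 and to 5.18 to 8.66 and 2.27 to 4.57 TPM in MONO-MAC-6. The part of these markers in the level of HSH2D was not tested.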

How the data were processed

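Poly(A) RNA of 36 libraries was measured. Per the submitters' processing notes, kallisto and limma were used with GRCh38; the annotation release is not given in the sources used here. The deposited values are TPM per Ensembl transcript, made by the authors; every library sums to 1000000, so depth is unknown. Of the transcripts, 78.5% matched GENCODE 29 and held 89.9% to 91.4% of each library's TPM. Libraries of a sample were averaged, transcripts summed to genes, and genes at a mean of 1 TPM or more in a group tested on log2(TPM + 1) with limma 3.58.1 in R 4.3.3 (lmFit, eBayes with trend and robust; two-sided; Benjamini-Hochberg over all genes). With 3 samples against 3, the smallest two-sided p of an exact permutation test is 0.1. Tables were made with Python 3.11.15 and pandas 2.3.3. HSH2D and the gene lists were chosen with earlier results of these data known. Named genes were HSH2D, its relative and partners, the flanking protein-coding genes, up to 4 members of each list past the threshold, and the 8 genes most correlated with HSH2D; OAS3, IFI35, FAM32A and the myeloid markers named were added after their values were seen. Alternatives were a pseudocount of 0.1, no filter, median-ratio scaling, the first library of each sample, blocking on the replicate number, and leaving each sample out in turn. HSH2D has no entry in the promoter table used here. A result of the kinase list in MONO-MAC-6 is not reported here.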

Additional observations from a re-analysis of the deposited data

How the results depend on the processing

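HSH2D was lower after A9 under every alternative run. With a pseudocount of 0.1 its difference was -1.18 in MOLM-13 and, in the other line, -1.49, and -1.20 in MOLM-13 for HSH2D-206 alone, an alternative chosen after seeing the data; leaving out a sample gave -1.14 to -1.04 for MOLM-13 and -1.41 to -1.17 for MONO-MAC-6. HSH2D between the lines was -0.40 with the first library of each sample (limma adjusted p = 0.0697), and -0.56 to -0.46 when a sample was left out. The cause was not tested.

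Genes called in MOLM-13 numbered 14, and 4 with no filter, 46 with median-ratio scaling and 2 to 8 without a sample. In MONO-MAC-6 they numbered 433, and 254 with no filter, 275 with the first libraries and 59 to 3205 without a sample, 3205 being without DMSO sample 1 and 59 without A9 sample 2. Scaling moved the median difference from 0.16 to -0.0092 in MONO-MAC-6 and from 0.12 to -0.078 between the lines, and the splits from 323 higher and 110 lower to 325 and 234, and from 3924 and 2384 to 3362 and 3756. Signs turned for genes that did not pass: FES in MOLM-13 (0.015 with scaling, -0.10 to 0.072 without a sample), SH2D2A in MOLM-13 (-0.12 to 0.00087 without a sample) and RAB8A in MONO-MAC-6 (0.031 with the first libraries, -0.26 to 0.14 without a sample).

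With each group's mean removed from every gene, DMSO and A9 samples of the same number correlated at 0.361, -0.0770 and 0.676 in MOLM-13. In MONO-MAC-6 they correlated at -0.0272, 0.0876 and -0.0907. Samples of unlike number correlated at -0.683 to 0.631 in MOLM-13 and at -0.129 to 0.130 in MONO-MAC-6. In MONO-MAC-6 samples of the same number were no more alike than the others. In MOLM-13 same numbers reached 0.676 and unlike numbers 0.631, so these values cannot decide whether the number marks a pairing there. The fits given above do not take it as a pairing in either line. With the replicate block the calls were 87 against 14 in MOLM-13, 94 against 433 in MONO-MAC-6 and 4111 against 6308 between the lines. HSH2D between the lines was then -0.50 (limma adjusted p = 0.101). In MONO-MAC-6 the calls of CIB3 (limma adjusted p = 0.130), XBP1 (0.0633), GAL (0.0501), CALR (0.126), ICAM2 (0.168), FSCN1 (0.0888), DAPP1 (0.0637), SH2D3C (0.0967) and IFI44L (0.0683) were lost under the block, which left 0 SH2 adaptors and 3 interferon-stimulated genes called. In MOLM-13, FSCN1 (limma adjusted p = 0.0282) and IFITM3 (0.0209) passed under the block, as did 1 NF-kB gene as lower.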
